A study of Mus musculus with 4 samples.

Results

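Expression of 10 genes of the Notch pathway was examined in single nuclei of the mouse medial cortex of E16.5 embryos. These were the receptors *Notch1*, *Notch2* and *Notch3*, the ligands *Dll1*, *Dll3* and *Jag1*, the basic helix-loop-helix genes *Hes1*, *Hes5* and *Hes6*, and the glycosyltransferase gene *Mfng*. They were picked by symbol out of the 56884 genes counted, and each was present. Animals with *Sst-Cre* and a tdTomato reporter (control) were compared with animals that also carried floxed *Dnmt1* alleles (*Sst-Cre/tdTomato/Dnmt1 loxP2*, Dnmt1 KO), on a C57BL/6J background. Cre is driven by *Sst* and so deletes *Dnmt1*, the gene of a DNA methyltransferase, in postmitotic somatostatin-positive interneurons and not in progenitors. The study asked whether this deletion acts on progenitors and on neurogenesis from outside the progenitors. There were 2 libraries for each genotype, each from another mouse brain, and both genotypes share *Sst-Cre* and tdTomato.

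Notch receptors are cleaved when a ligand on a neighbouring cell binds, and the released intracellular domain activates transcription together with *Rbpj*. In the developing cortex the *Hes1* and *Hes5* genes are the best known targets, and their products repress proneural genes and keep radial glia, the stem cells of the ventricular zone, undifferentiated. Proneural factors such as *Neurog2* in turn activate *Dll1* in cells that are leaving this state. *Dll1* then activates Notch in neighbouring cells and keeps these undifferentiated, the process called lateral inhibition. Intermediate progenitors, which carry *Eomes*, are made by radial glia and divide into neurons, which pass through a *Neurod1* stage.

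Values are transcript counts, given as CPM, that is, scaled so that the transcripts of all genes in each sum of nuclei have the same total. Where 4 values are listed, they follow the order Dnmt1 KO replicate 1, Dnmt1 KO replicate 2, control replicate 1 and control replicate 2. The libraries held 96455278 to 201141704 transcripts. After restriction to 1500 to 60000 transcripts per barcode, 29656 nuclei remained (4905 to 12064 per library), and no barcode was shared between libraries. Control replicate 2 was the sole library of batch 2 and had a median of 21140 transcripts per nucleus against 12274 to 12401 in the others. *Dnmt1* was at 61.8, 47.5, 59.6 and 56.0 CPM over all nuclei. In the nuclei with *Gad1* and *Gad2* transcripts described next it was at 59.6, 48.4, 61.5 and 51.1 CPM. Whether the counted transcripts include the deleted exons was not given in the sources used here, so these levels do not check the labels.

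Nuclei were sorted into 7 gates by their own transcripts of genes that are no members. The Slc1a3 gate held nuclei with at least 2 transcripts of this glutamate transporter gene of radial glia and no *Eomes* or *Neurod1* (873, 1401, 634 and 308 nuclei). The Slc1a3 Eomes gate held nuclei with at least 2 *Slc1a3* and at least 1 *Eomes* transcript (404, 665, 403 and 415). The Eomes gate (376, 376, 295 and 198 nuclei) and the Neurod1 gate (302, 412, 241 and 201) needed at least 2 transcripts of the named gene and more of it than of the other, with ties counted to the Eomes gate. Layer neurons were taken by at least 3 transcripts of layer neuron genes, *Tbr1* among them (1366, 3075, 1815 and 1708), interneurons by at least 3 of *Gad1* and *Gad2* (271, 1222, 1107 and 310) and vascular nuclei by at least 3 transcripts of 6 endothelial and mural genes (98, 359, 129 and 63). The gates limited the genes of the others, with some exceptions. *Slc1a3* was not limited in the vascular gate, and *Neurod1* was not limited in the Slc1a3 Eomes gate. Layer neuron genes were not limited in the Slc1a3 Eomes, Eomes and Neurod1 gates.

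The gates were checked with marker lists that held neither gate genes nor members. The 8 radial glia markers summed to 3319 to 4555 CPM in the Slc1a3 gate and to 347 to 630 CPM in the Eomes gate. They summed to 1293 to 1385 CPM in layer neurons and to 1232 to 3104 CPM in vascular nuclei, and 6 of the 8 were highest in the Slc1a3 gate. *Sox2* was highest in the interneuron gate and *Nes* in the vascular gate. The 6 intermediate progenitor markers summed to 151 to 231 CPM in the Eomes gate against 22.6 to 40.0 CPM in the Slc1a3 gate, with 3 of the 6 highest in the Eomes gate and 3 in the Slc1a3 Eomes gate. The 7 layer neuron markers were at 3029 to 3932 CPM in the Slc1a3 gate, against 6882 to 7799 CPM in the layer neuron gate, so the Slc1a3 gate was not free of neuronal transcripts. Of these 7 markers, 4 were highest in layer neurons, *Bcl11b* and *Mef2c* in interneurons and *Foxp2* in the Eomes gate. The 5 meningeal fibroblast markers stood at 119 CPM in the Slc1a3 gate of Dnmt1 KO replicate 2 and at 2.33 to 4.34 CPM in that gate of the other libraries. When nuclei with transcripts of other cell types were left out, an analysis added after the data were seen, 0 members were called between the genotypes and 10 of 10 between the Slc1a3 and Eomes gates, as without this step. Of the nuclei of the Slc1a3 Eomes gate, 7.92%, 11.3%, 10.4% and 16.4% were called as doublets, against 1.28% to 1.62% in the Slc1a3 gate.

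Among the receptors, *Notch1*, *Notch2* and *Notch3* were at their lowest in postmitotic neurons and high in the Slc1a3 and vascular gates. In vascular nuclei with at most 1 *Slc1a3* transcript, *Notch2* was at just 44.1 to 83.9 CPM. *Notch1* was at 248, 176, 232 and 249 CPM in the Slc1a3 gate, at 172, 151, 139 and 148 CPM in the Slc1a3 Eomes gate and at 88.9, 108, 91.1 and 81.1 CPM in the Eomes gate. It then dropped to 12.9, 9.42, 10.8 and 6.37 CPM in the Neurod1 gate. Each of these steps was downward in 4 of 4 libraries without overlap, and the step from the Eomes gate to the Neurod1 gate was the largest, with means that differed by a factor of 9.35. In layer neurons, *Notch1* was at 2.87 to 4.74 CPM. In interneurons it ranged from 2.65 to 18.5 CPM, and the highest value came from control replicate 1, where 5 striatal and ganglionic eminence markers summed to 5141 CPM against 185 to 927 CPM in that gate of the other libraries. The part of such nuclei in this value was not tested.

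*Notch2* had most of its loss before the Eomes gate. It was at 515, 492, 576 and 692 CPM in the Slc1a3 gate and at 157, 172, 175 and 160 CPM in the Slc1a3 Eomes gate. The Eomes gate had 35.6, 66.0, 39.2 and 35.1 CPM, and Dnmt1 KO replicate 2 was the highest there. The *Neurod1*, layer neuron and interneuron gates had means of 19.0 ± 6.70, 14.6 ± 1.99 and 19.9 ± 2.29 CPM (SD, n = 4). The range of the Neurod1 gate overlapped both others, while the interneuron gate (17.7 to 22.8 CPM) lay above layer neurons (12.1 to 16.9 CPM). Nuclei of at least 5000 transcripts were also thinned to 5000, and shallower nuclei were left out. Of these, 68.9% to 80.5% in the Slc1a3 gate held a *Notch2* transcript, against 5.05% to 6.28% of layer neurons.

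*Notch3*, best known as the receptor of vascular mural cells, was at 100, 56.0, 82.9 and 84.8 CPM in the Slc1a3 gate and at 32.6, 26.8, 28.5 and 27.7 CPM in the Slc1a3 Eomes gate. It reached 10.8, 8.45, 9.86 and 3.93 CPM in the Eomes gate, and 0.833 to 1.94 CPM in the Neurod1 gate. The vascular gate had the highest level, with 279, 154, 225 and 217 CPM, above the Slc1a3 gate in 4 of 4 libraries without overlap.

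The ligands did not share the course of the receptors. *Dll1*, which activates Notch on neighbouring cells, was highest in nuclei with both Slc1a3 and *Eomes* transcripts, with 46.6, 27.8, 38.9 and 29.8 CPM. In the Eomes gate it was at 31.0, 19.0, 22.9 and 14.9 CPM, lower in 4 of 4 libraries although the ranges overlap. The Slc1a3 gate had 7.53, 6.81, 8.72 and 5.82 CPM. These values overlap those of the Neurod1 gate (6.23 to 11.2 CPM), the interneuron gate (5.64 to 7.57 CPM) and, in part, layer neurons (5.51 to 6.02 CPM).

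*Dll3*, a ligand that is retained in the cell and does not activate Notch on its neighbours, was rare. It was highest in the Eomes gate (5.53, 6.10, 7.54 and 7.57 CPM) and the Slc1a3 Eomes gate (5.74, 3.52, 3.66 and 4.65 CPM). The Slc1a3 gate had 0.772, 0.592, 1.23 and 0.529 CPM, below the Eomes gate in every library and resting on 31 transcripts in all. *Jag1* was foremost a vascular ligand, with 127, 175, 133 and 111 CPM in the vascular gate. In the Slc1a3 gate it was at 9.55, 41.6, 27.8 and 39.0 CPM, so that Dnmt1 KO replicate 1 lay apart from the other libraries, and in the Slc1a3 Eomes gate it was at 4.26, 16.0, 21.3 and 16.3 CPM with the same library lowest. The mean in the Eomes gate was 3.69 ± 2.38 CPM (SD, n = 4), close to the 3.61 ± 1.97 CPM of the Neurod1 gate.

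*Hes1* and *Hes5*, the transcriptional repressors that Notch induces, fell from the Slc1a3 gate to the Eomes gate. *Hes1* was at 34.2, 16.3, 18.1 and 23.4 CPM in the Slc1a3 gate and at 5.18, 4.77, 4.46 and 4.02 CPM in the Slc1a3 Eomes gate. It was at 0.481, 1.88, 0.290 and 0.561 CPM in the Eomes gate, where 13 transcripts were counted in all. Vascular nuclei had 21.2, 26.1, 19.3 and 20.4 CPM of *Hes1*, within the range of the Slc1a3 gate. *Hes5* was at 18.4, 10.5, 10.6 and 7.23 CPM in the Slc1a3 gate, at 5.55, 3.32, 3.50 and 2.54 CPM in the Slc1a3 Eomes gate and at 0.240, 0.939, 0.870 and 0.281 CPM in the Eomes gate. Both genes were thus near 0 in the Eomes gate. Dnmt1 KO replicate 1 was the highest library for both *Hes1* and *Hes5* in the Slc1a3 gate.

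The *Hes5* upstream sequence is shown because it was the sole member window with the core motif of *Rbpj*, the DNA-binding partner of activated Notch. The 250 bases before the start were read from RefSeq sequences on GRCm38.p6 for the 8 members that the table holds, which excludes *Hes1* and *Mfng*. The motif searched was GTGGGAA on both strands. It occurred in 5.415% of 32851 such windows of mouse genes and at least 2 times in 0.1613% of them. In *Hes5* it lay 226 and 83 bases before the start (chr4:154960673-154960922, plus strand, 5′ to 3′, the motif in capitals on either strand).
Hes5 upstream: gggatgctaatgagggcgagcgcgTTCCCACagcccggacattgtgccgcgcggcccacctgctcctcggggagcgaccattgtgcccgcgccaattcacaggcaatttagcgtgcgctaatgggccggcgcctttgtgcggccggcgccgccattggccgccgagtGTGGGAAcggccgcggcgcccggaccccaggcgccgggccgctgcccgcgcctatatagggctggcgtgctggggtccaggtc
The motif CACNAG, to which Hes proteins bind, occurred in 36.67% of all windows and in those of *Notch1*, *Notch2*, *Notch3* and 1 of the 2 windows of *Hes6*. A match or its absence describes the letters of this window alone.

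*Hes6* and *Mfng* were higher in the gates with *Eomes* than in the Slc1a3 gate. *Hes6*, whose product counteracts *Hes1*, was at 10.8, 5.63, 8.70 and 11.2 CPM in the Eomes gate and at 8.51, 6.01, 9.55 and 8.67 CPM in the Slc1a3 Eomes gate. These gates overlapped, and the Slc1a3 gate lay below both with 2.99, 2.31, 3.32 and 1.76 CPM. *Mfng*, a fringe enzyme that adds sugars to Notch receptors and shifts their preference among ligands, was at 4.92, 3.32, 7.62 and 1.94 CPM in the Slc1a3 gate, at 70.1, 43.8, 51.9 and 75.9 CPM in the Slc1a3 Eomes gate and at 111, 73.9, 87.3 and 109 CPM in the Eomes gate. The Neurod1 gate had 26.2, 13.2, 27.5 and 27.1 CPM, and the vascular gate had 15.4, 35.1, 43.3 and 32.9 CPM.

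**Figure D1:**
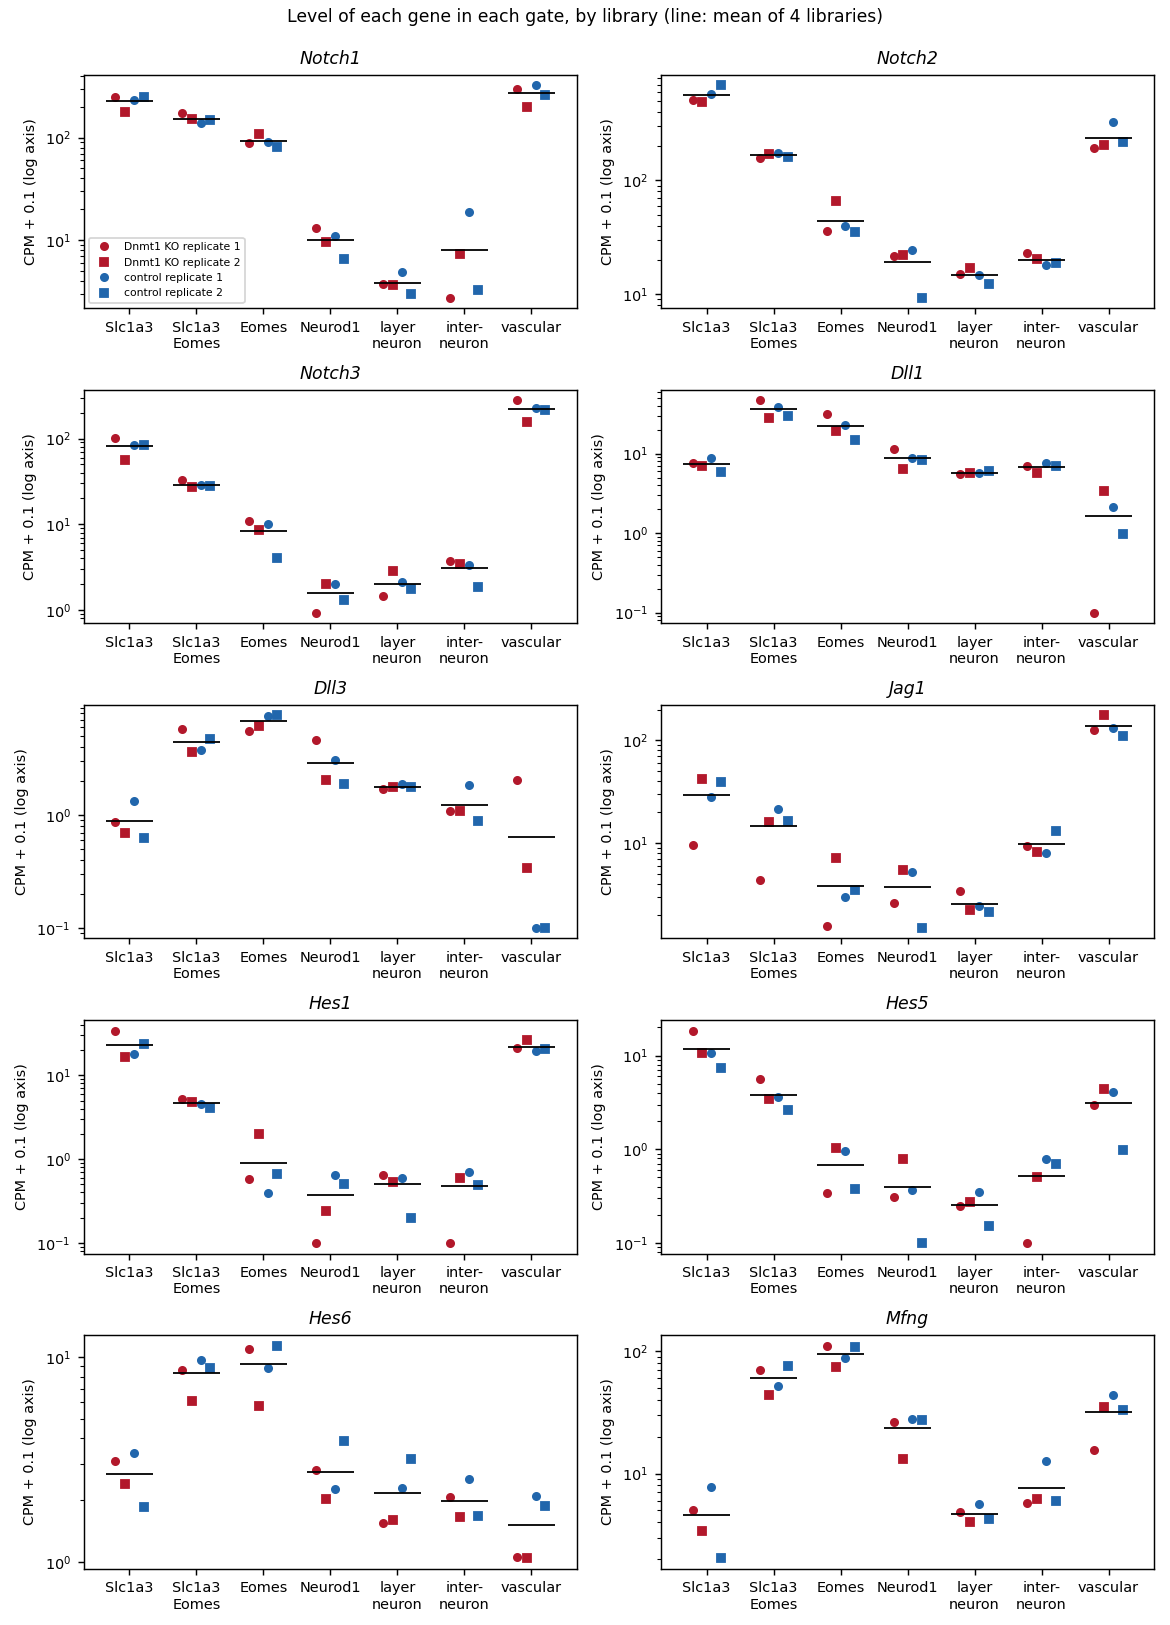
Level of each of the 10 genes (CPM + 0.1, log axis) in the 7 gates, 1 point per library and a line at the mean of 4 libraries. Hes1 and Hes5 fall below 2 CPM in the Eomes gate, and Mfng is highest in the Eomes gate with 73.9 to 111 CPM.

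The gates were then tested against each other with edgeR's quasi-likelihood test on sums per gate and library, with the library as a block, over 15033 genes and with Benjamini-Hochberg adjusted p-values under 0.05 as the call. Gate genes were left out. Between the Slc1a3 and Eomes gates, 48.2% of all genes tested were called (26% higher and 22.1% lower in the Slc1a3 gate), and 10 of 10 members were called, 6 higher and 4 lower. The median log2 fold change of the members was 2.02, against 0.05 for all genes tested. With such a background a call alone separates the members little from other genes, and the sizes are therefore given. *Hes1* was higher in the Slc1a3 gate by a log2 fold change of 4.65 (SE 0.40, edgeR adjusted p = 2.71e-09) and *Hes5* by 4.20 (SE 0.40, edgeR adjusted p = 1.42e-08). Of the receptors, *Notch2* differed by 3.63 (SE 0.21), *Notch3* by 3.19 (SE 0.23) and *Notch1* by 1.19 (SE 0.24, edgeR adjusted p = 0.000304). *Jag1* was higher by 2.84 (SE 0.45, edgeR adjusted p = 1.90e-05). The 4 genes that were lower in the Slc1a3 gate were *Mfng* with -4.49 (SE 0.27, edgeR adjusted p = 1.82e-11), *Dll3* with -3.18 (SE 0.31), *Hes6* with -1.81 (SE 0.22) and *Dll1* with -1.67 (SE 0.19). Each of the 10 calls held in every alternative analysis in which the gene was tested. With nuclei thinned to fewer transcripts, 8789 genes were tested, and some members had too few transcripts to be among them.

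In the next step, from the Eomes gate to the Neurod1 gate, 38.6% of the genes were called (18.7% higher and 19.9% lower in the Eomes gate). Of the members, 7 were called and all were higher in the Eomes gate. *Notch1* had the largest difference with 3.00 (SE 0.29, edgeR adjusted p = 5.35e-08), followed by *Notch3* with 2.21 (SE 0.37), *Mfng* with 1.82 (SE 0.24), *Hes6* with 1.52 (SE 0.24), *Dll1* with 1.13 (SE 0.20), *Dll3* with 1.04 (SE 0.29) and *Notch2* with 0.98 (SE 0.22). *Hes1*, *Hes5* and *Jag1* were not called, with 1.5 (SE 0.89), 0.54 (SE 0.73) and -0.20 (SE 0.60). Their counts were low in both gates, with 13 and 5 transcripts of *Hes1* and 9 and 7 of *Hes5*. *Hes1*, *Hes5* and *Jag1* were thus called in the first step and not in the second, and the difference between the steps was not tested. The call of *Dll3* was lost without Dnmt1 KO replicate 2 (0.93) or control replicate 2 (0.80), with doubled gate minimums (0.998) and with gates set after thinning (0.83). When each nucleus was thinned to 1500 transcripts, 4 members were called, and *Notch2* was not (0.70, edgeR adjusted p = 0.122).

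**Figure D2:**
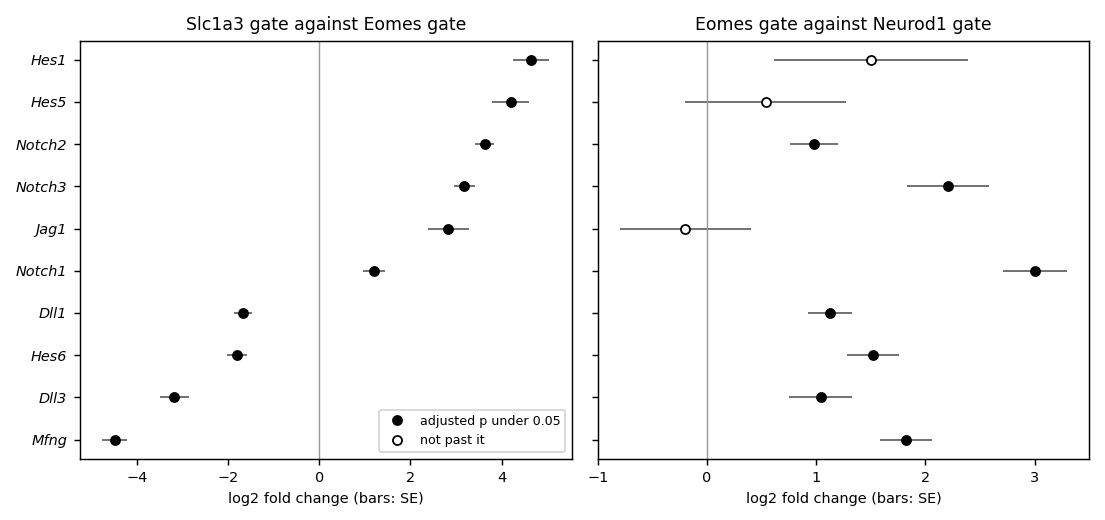
Fitted log2 fold change of each gene (points, with SE bars) for the Slc1a3 gate against the Eomes gate and for the Eomes gate against the Neurod1 gate. Filled points are past an adjusted p of 0.05; the 6 positive genes on the left are led by Hes1 at 4.65, and on the right Notch1 is farthest from 0 at 3.00.

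Against layer neurons, the Slc1a3 gate differed at 66.6% of the genes (32% higher and 34.7% lower) and at 7 members. Higher in the Slc1a3 gate were *Hes5* by 5.67 (SE 0.32), *Notch1* by 5.51 (SE 0.29), *Hes1* by 5.42 (SE 0.31), *Notch2* by 4.85 (SE 0.22), *Notch3* by 4.84 (SE 0.22) and *Jag1* by 3.08 (SE 0.36). *Dll3* was lower by -1.57 (SE 0.30, edgeR adjusted p = 8.07e-05). *Dll1*, *Hes6* and *Mfng* were not called, with -0.12 (SE 0.18), -0.04 (SE 0.21) and -0.47 (SE 0.28). *Mfng* was called without control replicate 1 (-0.73), with doubled gate minimums (-0.76) and with gates set after thinning (-0.60). On the levels above, these 3 genes were higher in the *Slc1a3* Eomes and Eomes gates than in either of the gates compared here.

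The vascular gate was compared with the Slc1a3 gate as the other gate with high receptor levels. Here 50.3% of the genes were called (24.7% higher and 25.6% lower in the vascular gate). *Mfng* was higher by 2.90 (SE 0.30), *Jag1* by 2.29 (SE 0.33) and *Notch3* by 1.41 (SE 0.18), and *Hes5* with -1.79 (SE 0.34), *Dll1* with -1.66 (SE 0.35), *Notch2* with -1.31 (SE 0.19) and *Hes6* with -0.97 (SE 0.39, edgeR adjusted p = 0.0435) were lower. With thinned nuclei *Dll1* was not called (-1.88, edgeR adjusted p = 0.0707). *Notch1*, *Hes1* and *Dll3* were not called, with 0.21 (SE 0.24), -0.03 (SE 0.26) and -0.92 (SE 0.73). With gates set after thinning *Dll3* was called, with -2.32 (edgeR adjusted p = 0.0454). Since *Slc1a3* was not limited in the vascular gate, the fit was repeated without its nuclei of 2 or more *Slc1a3* transcripts, an analysis added after the data were seen. Then *Notch2* was at -3.13, *Hes5* at -5.73, *Notch3* at 1.72, *Jag1* at 2.68 and *Mfng* at 3.48, each still called, and *Hes6* was no longer called although its difference was about as large, with -1.03 (SE 0.51, edgeR adjusted p = 0.0917). The call of *Hes6* was also lost without Dnmt1 KO replicate 1 (-0.86), Dnmt1 KO replicate 2 (-0.79) or control replicate 1 (-1.07), with DESeq2 (-0.97), with no filter on low counts (-1.07), with the filter on reads (-0.81), with doubled gate minimums (-0.98), with gates set after thinning (-0.77) and with other cell types removed (-0.48).

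Of the 649 nuclei of the vascular gate, 281 were taken by endothelial and 173 by mural gate genes, the latter with few meningeal fibroblast transcripts. Mural cells surround the endothelium of vessels. Of the 173, 95 had 2 or more *Slc1a3* transcripts and are given apart below. The 195 nuclei that met neither definition were left out here. Endothelial nuclei numbered 34, 167, 55 and 25. They had *Notch1* at 367, 222, 321 and 270 CPM and *Jag1* at 199, 175, 200 and 161 CPM. *Dll4*, the endothelial ligand of Notch and no member, was at 99.7, 60.3, 81.9 and 89.2 CPM in them, and *Notch3* at 8.08, 3.99, 3.15 and 2.18 CPM. Mural nuclei with at most 1 *Slc1a3* transcript (16, 36, 16 and 10) had the reverse pattern for these last genes. *Notch3* was at 565, 560, 592 and 452 CPM there, *Dll4* was at 0 in all of them, and *Mfng* was at 0, 3.31, 12 and 0 CPM against 43.1 to 99.3 CPM in endothelial nuclei. *Notch3*, *Dll4*, *Mfng*, *Jag1* and *Notch2* each differed in the same direction in 4 of 4 libraries. The exact sign-flip permutation test over 4 libraries gave p = 0.125 for each, two-sided and the smallest value it can give, and an adjusted value of 0.275 over 11 genes.

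Nuclei with mural gate genes and 2 or more *Slc1a3* transcripts (18, 35, 31 and 11) were set apart, since their markers went against a mural label. The 4 mural markers summed to 7.37 to 47.7 CPM in them against 424 to 545 CPM in the mural nuclei above, and the radial glia markers to 4482 to 8768 CPM against 160 to 430 CPM. *Notch2* was at 416, 676, 753 and 777 CPM in these nuclei, and *Hes5* was at 7.37, 30.6, 10.8 and 4.13 CPM. Endothelial nuclei had 0 *Hes5* transcripts in every library. The fit described above left out these nuclei together with all other vascular nuclei of 2 or more *Slc1a3* transcripts, 201 in all, so the part of these nuclei alone was not tested.

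**Figure D3:**
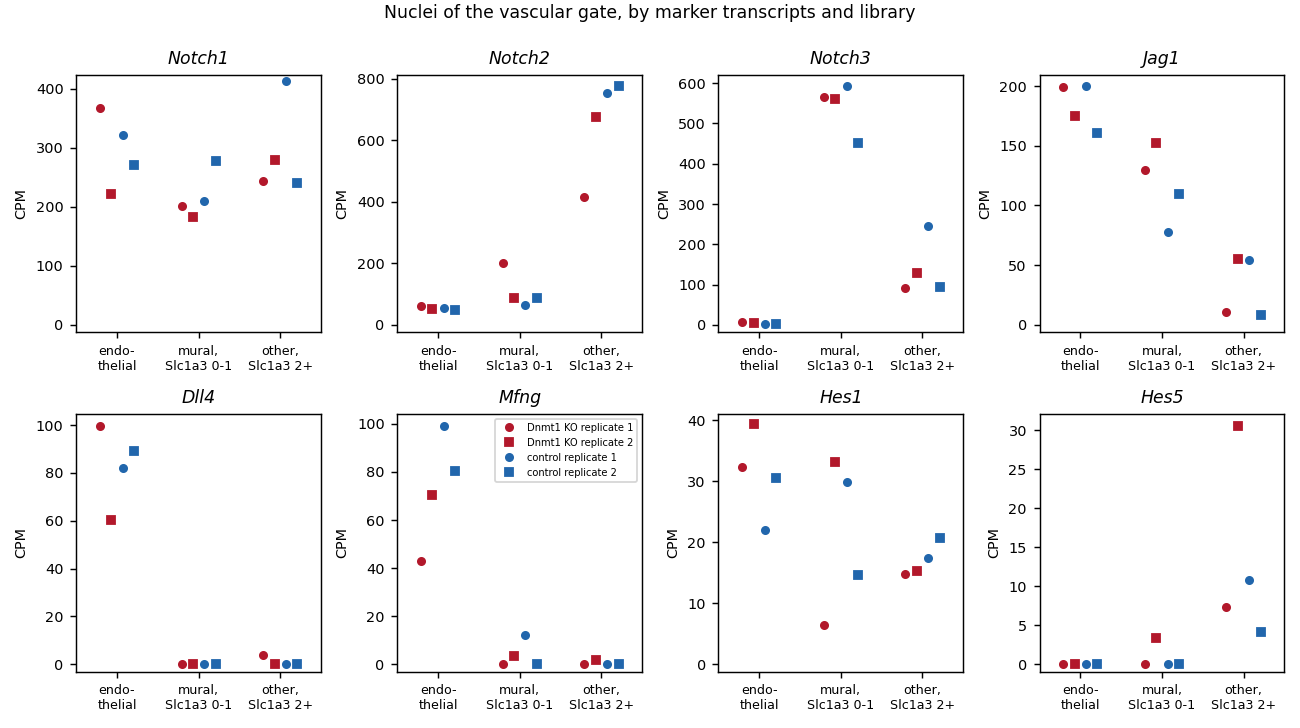
Level (CPM) of 8 genes in endothelial nuclei, in mural nuclei with 0 to 1 Slc1a3 transcripts and in nuclei with mural gate genes and 2 or more Slc1a3 transcripts, whose markers went against a mural label, 1 point per library. Dll4 and Mfng points lie high in endothelial nuclei, Notch3 reaches 452 to 592 CPM in mural nuclei with 0 to 1 Slc1a3 transcripts, and Notch2 and Hes5 are highest in the Slc1a3-positive nuclei.

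Radial glia divide, so the Slc1a3 gate was divided by 6 cell cycle genes into cycling nuclei (560, 703, 390 and 233) with at least 3 such transcripts and non-cycling nuclei (161, 453, 126 and 44) with none. *Notch1* was at 280, 281, 314 and 314 CPM in cycling and at 128, 45.5, 58.1 and 35.8 CPM in non-cycling nuclei. *Hes1* was at 44.1, 26.4, 24.4 and 29.7 CPM against 8.88, 3.83, 6.90 and 1.02 CPM. *Hes5* differed less, with 19.9, 13.8, 11.4 and 9.04 CPM against 10.4, 5.40, 5.18 and 2.05 CPM. *Notch2*, *Notch3* and *Jag1* were likewise higher in cycling nuclei in 4 of 4 libraries, and *Dll1* (3.51, 5.29, 7.72 and 3.33 CPM against 11.0, 7.84, 9.20 and 17.4 CPM) and *Dll3* were lower in 4 of 4. *Hes6* and *Mfng* were higher in 2 of 4 libraries. The exact permutation p was 0.125 for each of the 8 genes with 1 direction, the smallest possible with 4 libraries (adjusted 0.172 over 11 genes). The radial glia markers moved with this division, at 3573 to 5834 CPM in cycling and 1634 to 2242 CPM in non-cycling nuclei, and the layer neuron markers at 1355 to 1730 CPM against 5085 to 9276 CPM. The part of neurons in the non-cycling set was not tested.

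Within the Eomes gate, cycling nuclei (59, 93, 61 and 57) had more *Notch1*, *Notch2*, *Notch3*, *Jag1* and *Hes6* and less *Mfng* than non-cycling nuclei (232, 191, 148 and 101) in 4 of 4 libraries. *Hes6* was at 13.2, 10.1, 13.5 and 17.3 CPM in cycling and at 9.57, 4.87, 6.40 and 6.63 CPM in non-cycling nuclei. *Mfng* was at 96.3, 60.0, 79.0 and 97.2 CPM against 110, 81.3, 94.1 and 115 CPM. *Notch1* differed by 34.8 ± 18.8 CPM (SD, n = 4). These differences gave an exact permutation p of 0.125 as well (adjusted 0.229 over 11 genes).

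Lateral inhibition concerns single cells, so nuclei with a *Dll1* transcript were compared with nuclei without one in the same gate and library. Each was first thinned to 5000 transcripts, and nuclei with fewer were left out. In the Slc1a3 gate, 104 nuclei had *Dll1* (10 to 37 per library) and 2982 did not. *Hes1* was at 7.14, 5.41, 13.8 and 0 CPM in nuclei with *Dll1* and at 34.8, 17.0, 20.1 and 22.6 CPM in nuclei without it. It was lower in 4 of 4 libraries, by a mean of -17.0 ± 9.80 CPM (SD, n = 4, exact permutation p = 0.125), but just 4 *Hes1* transcripts lay in the *Dll1* nuclei. *Hes5* was at 7.14, 5.41, 0 and 20.0 CPM against 20.3, 13.0, 12.3 and 6.85 CPM, lower in 3 of 4 libraries with a mean difference of -4.97 ± 12.3 CPM (exact permutation p = 0.625). No difference could pass a threshold of 0.05 with 4 libraries, and 3 *Hes5* transcripts lay in the nuclei with *Dll1*. Without thinning, where deeper nuclei are more often counted as having *Dll1*, both genes were lower in 4 of 4 libraries, by -15.2 CPM for *Hes1* and -5.11 CPM for *Hes5*. *Notch2* was lower in the nuclei with *Dll1* in 4 of 4 libraries, with 364, 395, 455 and 620 CPM against 538, 568, 655 and 717 CPM. *Notch3* was lower as well in 4 of 4, by -21.4 ± 7.39 CPM, whereas *Jag1* was higher in 4 of 4, by 13.9 ± 6.62 CPM (exact permutation p = 0.125 each). Without thinning, *Jag1* was higher in 3 of 4 libraries, by 10.1 ± 19.5 CPM (exact permutation p = 0.375). The non-cycling nuclei of this gate, high in layer neuron markers, had more *Dll1* than cycling nuclei. They had less *Hes1*, *Hes5*, *Notch2*, *Notch3* and *Jag1*. The part of neuronal nuclei in the differences between nuclei with and without *Dll1* was not tested.

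In the Slc1a3 Eomes gate, 280 nuclei had *Dll1* and 1571 did not. *Notch1* was higher with *Dll1*, at 277, 310, 230 and 322 CPM against 177, 176, 154 and 145 CPM, a mean difference of 122 ± 43.6 CPM (SD, n = 4, higher in 4 of 4 libraries, exact permutation p = 0.125). *Mfng* differed by 21.7 ± 11.1 CPM and *Dll3* by 3.59 ± 3.75 CPM, both higher with *Dll1* in 4 of 4 libraries. The value of *Dll3* rests on 12 transcripts in the nuclei with *Dll1*. Without thinning, *Dll3* was higher in 3 of 4 libraries, by 0.693 ± 0.867 CPM. *Hes1* was lower in 4 of 4 libraries with -4.48 ± 0.437 CPM, which rests on 3 transcripts in the nuclei with *Dll1*. *Hes5* had the other direction, higher with *Dll1* in 3 of 4 libraries by 1.25 ± 2.55 CPM (exact permutation p = 0.5), and without thinning it was lower in 3 of 4. Adjusted over the 9 genes of each gate, the smallest of these p-values was 0.281. Without the nuclei called as doublets, which were most frequent in this gate, *Notch1* differed by 126 ± 41.0 CPM and *Hes1* by -4.90 ± 1.14 CPM, both in 4 of 4 libraries, while *Dll3* was higher in 3 of 4.

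The genotypes were compared with edgeR's quasi-likelihood test in all nuclei and in each gate. At an adjusted p under 0.05, 0 genes were called in any of the 8 populations (0% of 10270 to 21516 genes tested), and thus 0 of the 6 to 10 members that passed the filter on low counts. At an unadjusted p under 0.05 there were 427 to 1612 genes in the 8 populations, and DESeq2 called 3 to 205 genes, of which 0 were members. A single member had an unadjusted p under 0.05, *Hes6* in layer neurons. Its 4 values were 1.45, 1.51, 2.19 and 3.10 CPM, lower in both Dnmt1 KO libraries, and the difference was -0.82 on the log2 scale (SE 0.28, edgeR unadjusted p = 0.031, edgeR adjusted p = 0.871).

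In the Slc1a3 gate, the members' log2 fold changes for Dnmt1 KO over control ran from -0.29 to 0.72 with a median of -0.07, against a median of 0.01 for all genes tested. *Hes5* had the largest difference, with the 18.4, 10.5, 10.6 and 7.23 CPM given above (0.72, SE 0.35, edgeR adjusted p = 0.927), and the genotypes overlap. With 1 library left out this value ranged from 0.30 to 1.07. *Hes1* was at 0.32 (SE 0.36), *Jag1* at -0.29 (SE 0.71), *Mfng* at -0.24 (SE 0.65), *Notch1* at -0.14 (SE 0.17), *Notch3* at -0.07 (SE 0.27), *Hes6* at 0.06 (SE 0.43) and *Dll1* at 0.01 (SE 0.29). *Dll3* did not pass the filter. *Notch2* was the 1 member of 9 whose libraries did not overlap between the genotypes, both Dnmt1 KO libraries (515 and 492 CPM) being below the lower control at 576 CPM (-0.28, SE 0.15, edgeR adjusted p = 0.927). Of all genes tested in this gate, 33.8% did not overlap.

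In the Eomes gate, 8 members were tested and *Hes1* and *Hes5* were too low. The log2 fold changes ran from -0.36 for *Dll3* (SE 0.31) to 0.50 for *Notch3* (SE 0.47). *Dll3* was the 1 member that did not overlap, both Dnmt1 KO libraries (5.53 and 6.10 CPM) being below the lower control at 7.54 CPM, where 37.7% of all genes did not. Without Dnmt1 KO replicate 1, 1 member was called in this gate, *Notch2*, with 0.82 (SE 0.21, edgeR adjusted p = 0.0453), which sets Dnmt1 KO replicate 2 alone against both controls. In the Eomes gate the 4 Cajal-Retzius markers summed to 661 and 1183 CPM in Dnmt1 KO replicates 1 and 2 against 178 and 254 CPM in the controls. The 4 choroid plexus and hem markers summed to 16.8 and 55.2 against 7.83 and 1.68 CPM. The 5 meningeal fibroblast markers summed to 0.240 and 14.1 against 0.290 and 0 CPM. Their part in this call was not tested. In the Slc1a3 Eomes gate, *Jag1* had the largest difference (-0.80, SE 0.54, edgeR adjusted p = 0.759), with 4.26, 16.0, 21.3 and 16.3 CPM. The radial glia markers of that gate were likewise lowest in Dnmt1 KO replicate 1, with 1079, 1770, 1663 and 1529 CPM. Their part in this difference was not tested. No filter on low counts made *Jag1* a call (edgeR adjusted p = 0.036). Without Dnmt1 KO replicate 2, 1 member was called in the Slc1a3 Eomes gate, *Jag1*, with the low Dnmt1 KO replicate 1 alone against both controls (-2.12, SE 0.32, edgeR adjusted p = 0.00968). The difference between the genotype effects of the Slc1a3 and Eomes gates was tested as an interaction, with 0 of 13755 genes called by edgeR (494 at an unadjusted p under 0.05, 0 by DESeq2). Of the members 10 were tested in this fit and 0 were called, and *Hes1*, *Hes5* and *Dll3* had too few transcripts in one of the gates to be read.

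**Figure D4:**
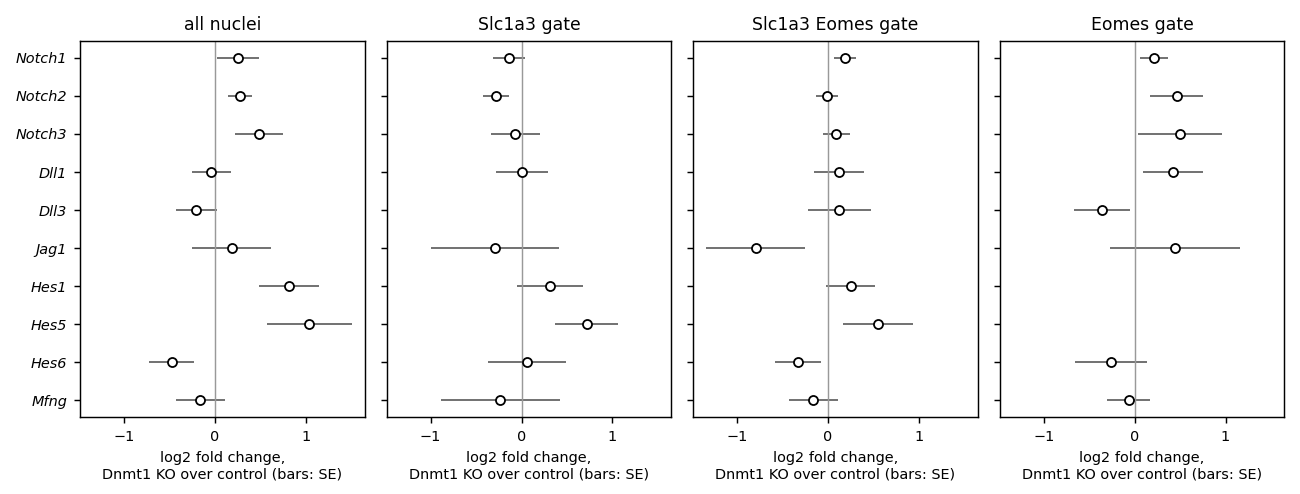
Fitted log2 fold change of each gene, Dnmt1 KO over control (points, with SE bars), in all nuclei and in the 3 progenitor gates; genes without a point did not pass the filter on low counts. Open points mark that no gene passed an adjusted p of 0.05, and Hes5 lies highest, at 1.04 in all nuclei and 0.72 in the Slc1a3 gate.

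Over all nuclei, 4 of 10 members did not overlap between the genotypes, where 40.1% of all genes did not. *Hes5* was at 4.21, 2.07, 1.96 and 1.04 CPM (log2 fold change 1.04, SE 0.47, edgeR adjusted p = 0.653) and *Hes1* at 7.59, 4.03, 3.54 and 2.94 CPM (0.82, SE 0.33, edgeR adjusted p = 0.649). With 1 library left out, the values ranged from 0.47 to 1.55 for *Hes5* and from 0.31 to 1.21 for *Hes1*. *Notch2* was at 129, 114, 110 and 88.2 CPM (0.28, SE 0.13). *Hes6* was lower in Dnmt1 KO, with 3.15, 2.14, 3.39 and 3.81 CPM (-0.48, SE 0.25). The share of nuclei in the Slc1a3 gate was 15.5%, 11.6%, 9.0% and 6.28%, in the same order of libraries as *Hes1*, *Hes5* and *Notch2*. The radial glia markers over all nuclei did not have this order, with 1483, 1569, 1523 and 1561 CPM. They were at 1293 to 1385 CPM in layer neurons as well, so their sum over all nuclei is no measure of this share. Lists of markers of other cell types separated the genotypes too. The 4 choroid plexus and hem markers summed to 29.5 and 81.5 CPM in the Dnmt1 KO libraries against at most 12.1 CPM. The 4 Cajal-Retzius markers had 854, 645, 476 and 525 CPM and the 4 astrocyte markers 132, 140, 89.3 and 63.8 CPM. The 7 layer neuron markers went the other way, with 4941, 5040, 5765 and 5821 CPM. Of the Cajal-Retzius markers, 3 were highest in the vascular gate. The astrocyte sum was higher in the Neurod1 gate than in the Slc1a3 gate in every library. The Cajal-Retzius and astrocyte sums are thus no sure measure of those cells. The part of the share and of other cell types in the levels over all nuclei was not tested. With gates set after thinning to 5000 transcripts, the share among nuclei of at least that many was 17.3%, 13.2%, 11.3% and 10.2%. In sums over all nuclei, fewer cells of a type and less RNA per cell cannot be told apart. Within the Slc1a3 gate, *Hes1* of the genotypes overlapped, and *Notch2* was lower in both Dnmt1 KO libraries than in the controls. *Hes5* overlapped there narrowly, by the values of Dnmt1 KO replicate 2 and control replicate 1 given above. With the doubled gate minimum, *Hes5* was at 19.3, 11.46, 11.44 and 8.18 CPM, without overlap. The cycling and the non-cycling nuclei of the gate did not overlap for *Hes5* either.

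**Figure D5:**
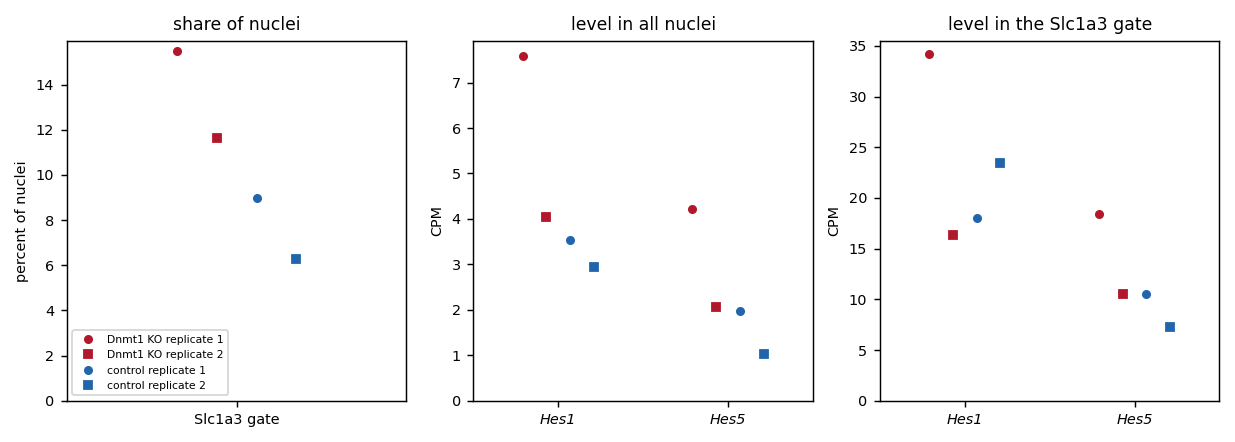
Share of nuclei in the Slc1a3 gate (percent), and Hes1 and Hes5 levels (CPM) in all nuclei and within the gate, 1 point per library. The share and the levels over all nuclei descend in the same order of libraries, from 15.5% to 6.28% and, for Hes5, from 4.21 to 1.04 CPM. Within the gate the genotypes overlap, for Hes5 narrowly.

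The remaining genotype comparisons gave values of the same kind. In the vascular gate, 6 members were tested and lay between -0.49 for *Mfng* (SE 0.40) and 0.34 for *Jag1* (SE 0.21). In interneurons, where *Dnmt1* is targeted in part of the nuclei, *Notch1* was at 2.65, 7.19, 18.5 and 3.16 CPM (-0.998, SE 0.84), with the value of control replicate 1 beside the striatal markers given above. In the Neurod1 gate the 7 members tested ranged from -0.45 for *Mfng* (SE 0.33) to 0.47 for *Dll3* (SE 0.58).

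A further 46 genes of the pathway were followed as a list, covering other receptors and ligands, the transcriptional complex, Hey genes, receptor processing and ligand endocytosis. None of the 33 to 44 that could be tested was called between the genotypes in any population by edgeR, with 0 to 3 genes at an unadjusted p under 0.05. The 3 with the largest absolute log2 fold changes in the Slc1a3 gate included *Hey2*, a Notch target, with 11.2, 5.33, 3.19 and 1.94 CPM (1.67, SE 0.48, edgeR adjusted p = 0.927) and *Nrarp* (-0.69, SE 0.40), a feedback inhibitor of Notch.

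Between the Slc1a3 and Eomes gates, 26 of 43 genes tested were called, where 48.2% of all genes were, 10 higher and 16 lower in the Slc1a3 gate, with a list median of -0.17. *Lfng*, the fringe gene that differs from *Mfng* in its place in the series, was at 39.8, 20.6, 29.2 and 38.6 CPM in the Slc1a3 gate, at 11.1, 5.80, 6.05 and 6.88 CPM in the Slc1a3 Eomes gate and at 0.721, 0.939, 0.870 and 0 CPM in the Eomes gate. It differed by 5.47 between the Slc1a3 and Eomes gates (SE 0.32, edgeR adjusted p = 1.24e-11), opposite in sign to the -4.49 of *Mfng*. The other 9 genes that were higher in the Slc1a3 gate were *Hey2* (2.87, SE 0.49), *Dtx4* (2.72, SE 0.30), *Maml2* (1.63), *Neurl1a* (1.58), *Neurl1b* (1.54), *Hey1* (1.35), *Nrarp* (1.33), *Adam17* and *Fbxw7*. Lower were *Neurog2* with -2.47 (SE 0.18), *Dll4*, *Numbl*, a Notch antagonist, with -1.71 (SE 0.11), *Maml3* with -1.47 (SE 0.20) and, among those with smaller amounts, *Dtx1*, *Ncstn*, *Rbpj*, *Dtx3*, *Maml1*, *Mib1*, *Itch*, *Adam10*, *Spen* and *Poglut1*. *Rbpj*, through which all Notch receptors act, was at 181 to 236 CPM in the Slc1a3 gate and at 276 to 310 CPM in the Eomes gate (-0.63, SE 0.08), so that its level did not follow *Hes1* and *Hes5*.

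From the Eomes to the Neurod1 gate, 25 of 43 were called (38.6% of all genes), 15 higher and 10 lower in the Eomes gate. *Neurog2* (2.60, SE 0.20), *Nrarp* (1.63, SE 0.46), *Maml3* (0.98, SE 0.20), *Maml2*, *Rbpj*, *Numb*, *Ncstn*, *Pofut1*, *Numbl*, *Adam17*, *Snw1*, *Fbxw7*, *Itch* and *Mib1* were among those higher in the Eomes gate. *Neurl1a* (-2.50, SE 0.43), *Dtx4* (-2.04, SE 0.32), *Dner* (-1.89, SE 0.36), *Jag2*, *Bcl6*, *Dtx1*, *Neurl1b*, *Aph1b*, *Rfng* and *Adam10* were lower. *Neurog2*, the proneural factor that activates *Dll1*, was at 51.9, 35.4, 49.3 and 37.6 CPM in the Eomes gate and at 5.41, 7.89, 5.94 and 3.98 CPM in the Neurod1 gate.

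Between the Slc1a3 and layer neuron gates, 33 of 43 were called, against 66.6% of all genes. The 17 that were higher in the Slc1a3 gate included *Lfng* (6.92, SE 0.26), *Hey2* (4.22, SE 0.39), *Nrarp* (3.63, SE 0.28), *Heyl*, *Hey1*, *Maml2*, *Neurog2*, *Notch4*, *Dtx4*, *Numb*, *Adam17*, *Rbpj*, *Pofut1*, *Fbxw7* and *Snw1*. The 16 that were lower included *Bcl6* (-2.66, SE 0.24), *Dtx1* (-2.05, SE 0.16), *Jag2* (-1.96, SE 0.26), *Numbl*, *Aph1b*, *Neurl1a*, *Dner*, *Rfng*, *Psen2*, *Mib2*, *Adam10*, *Maml1*, *Ncstn*, *Dtx3* and *Spen*.

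In the vascular gate, 27 of 43 differed from the Slc1a3 gate (50.3% of all genes did), 16 higher and 11 lower. *Notch4*, the endothelial receptor, was at 110, 110, 109 and 118 CPM in the vascular gate and at 0.592 to 1.35 CPM in the Slc1a3 gate (6.91, SE 0.24). *Heyl* (7.20, SE 0.53), *Dll4* (6.48, SE 0.38), *Dlk1* (6.36, SE 0.45), *Jag2* (3.20, SE 0.29), *Hey2* (2.25, SE 0.32), *Maml3*, *Adam10*, *Neurl1a*, *Nrarp*, *Numb*, *Aph1a*, *Dtx3*, *Maml1*, *Itch* and *Mib1* were higher too. *Neurog2* (-2.14, SE 0.37), *Dner*, *Neurl1b*, *Dtx1*, *Rbpj*, *Lfng*, *Aph1b*, *Poglut1*, *Pofut1*, *Spen* and *Numbl* were lower.

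Genes whose levels followed a member were ranked by Pearson correlation of log2(CPM + 1) over the 28 sums of 7 gates in 4 libraries, which share libraries and depth, so that r is given as a description. Nearest to *Hes5* among 8622 genes were *Hmga2* (r = 0.943), *BC006965* (0.941), *Pappa* (0.933), *Gemin5* (0.931) and *Mtx1* (0.929). For *Dll1* they were *Slc16a14* (0.931), *Zfp454* (0.900), *Dhx30* (0.896), *Spire1* (0.892) and *Kdm7a* (0.884), among 8621 genes. For *Notch3*, the 5 nearest of 8621 genes included *Slc38a3* (0.988), *Zfp36l1* (0.985), *Itga5* (0.979) and *Pon2* (0.978). Of the 15 nearest genes, 0 were members, but genes with a mean under 10 CPM, *Hes5* among them, could not be ranked. The lists thus do not show whether the members follow each other.

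The members lie on 8 chromosomes (GRCm39), all as protein-coding genes. *Notch1* (chromosome 2, 26347915 to 26406675, minus strand) and *Jag1* (chromosome 2, 136923373 to 136958693, minus strand) share a chromosome, as do *Notch3* (chromosome 17, 32339794 to 32385893, minus strand) and *Dll1* (chromosome 17, 15587276 to 15597134, minus strand). *Notch2* lies on chromosome 3 (97920800 to 98057677, plus strand), *Hes1* on chromosome 16 (29882134 to 29886643, plus strand), *Hes5* on chromosome 4 (155045373 to 155046828, plus strand) and *Hes6* on chromosome 1 (91339204 to 91342103, minus strand). *Dll3* lies on chromosome 7 (27992978 to 28001673, minus strand) and *Mfng* on chromosome 15 (78640074 to 78657718, minus strand), and no annotated gene overlaps either. *Dll1* overlaps the protein-coding gene *Fam120b* on the opposite strand. *Hes5* overlaps the noncoding gene *Gm20421* on the opposite strand. *Notch1*, *Notch3*, *Jag1*, *Hes1* and *Hes6* overlap noncoding genes on the opposite strand too. On the same strand, *Notch2* overlaps *Gm42819* and *Gm42820*, and *Notch1* overlaps *Mir6996*. Whether reads were counted by strand was not stated, so transcripts of such pairs may not have been separated. Levels were compared between gates for 1 gene at a time and not between genes, since the genes span 1.456 to 136.9 kb and the counting of intronic reads was not stated.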

How the data were processed

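The authors processed the reads of the split-pool libraries (Parse Evercode) with Trailmaker against GRCm39 and deposited unfiltered, unscaled transcript counts for every barcode and gene. The Trailmaker version was not given in the sources used here. The submitters' processing notes also name R 4.4.1 and Seurat 5.0.1.9001. Groups were taken from the sample titles. The deposited barcode tables give per-barcode counts too, of which the transcript counts set the filter of 1500 to 60000 and the read counts an alternative. The mitochondrial limit of 10% removed 0 nuclei. No cell-type annotation was used. Some genes of the gates and lists are not reported here. The 10 members, the 46 other genes and the marker lists were chosen with earlier results of these data known.

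Counts were summed per library and gate, since nuclei are not replicates, and divided by the summed transcripts for CPM. Sums were tested with edgeR 4.0.16 in R 4.3.3 (quasi-likelihood test, TMM scaling, filterByExpr). The genotype design held the group alone, and the gate design held the gate and the library over 7 gates. The SE is the absolute log2 fold change divided by the square root of the F statistic. The threshold was a Benjamini-Hochberg adjusted p of 0.05 over all genes tested. Doublets were called with scrublet (scanpy 1.11.5, Python 3.11.15) at an expected 5% and kept. Differences within gates were tested over 4 libraries with an exact two-sided sign-flip permutation test (scipy 1.17.1). For nuclei with and without *Dll1* a ratio had been planned, but it was undefined where a library had 0 transcripts, and the CPM difference was used. The fits were tested on simulated counts. Members were all named; of the other pathway genes, those past the threshold or, with none, the 3 with the largest absolute change in the Slc1a3 gate, and for *Hes5*, *Dll1* and *Notch3* the 5 most correlated genes with at least 10 CPM. Coordinates on GRCm39 came from GENCODE, to which 56323 of 56884 gene identifiers were matched. Shares and counts of transcripts carry counting error only. Alternatives were DESeq2 1.42.0, no filter on low counts, each library left out, the filter on reads, doublets left out, nuclei thinned to 1500 transcripts, doubled gate minimums, the replicate number or the batch as a covariate, and, added after the data were seen, gates set after thinning, other cell types left out, a crossed replicate block and a vascular gate without nuclei of 2 or more *Slc1a3* transcripts. Same-numbered libraries did not deviate together (r = -0.01 over 21516 genes).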

Additional observations from a re-analysis of the deposited data

How the results depend on the processing

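With 2 libraries per genotype, 0 members called says little about small differences, and a low gene such as *Dll3*, *Hes1* or *Hes5* outside the Slc1a3 gate is limited by a few transcripts. By genotype, 0 members were called under each alternative except in the Slc1a3 Eomes gate, with 1 (*Jag1*) when no filter on low counts was used and 0 to 1 with 1 library left out, and the Eomes gate, with 0 to 1 (*Notch2*). Between the vascular and Slc1a3 gates, the call of *Hes6* was lost under most alternatives, as listed with its values above. With thinned nuclei, 4 members were called between the Eomes and Neurod1 gates and 4 between the vascular and Slc1a3 gates. With a library left out, 7 to 8 members were called between the Slc1a3 and layer neuron gates, 6 to 7 in each of the other comparisons with 7, and 10 between the Slc1a3 and Eomes gates. The *Dll1* comparison ranged from -20.6 to -13.5 CPM for *Hes1* and from -11.0 to -2.25 CPM for *Hes5*. The causes of these changes were not tested, except that thinning leaves fewer transcripts.

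No gene was called by genotype in the edgeR analysis of the report. Over the 8 populations DESeq2 called 3 to 205, the fit with no filter 24 to 568, and leaving out Dnmt1 KO replicates 1 or 2 or control replicate 2 gave 0 to 260, 0 to 470 and 0 to 5. Doubled gate minimums gave 0 to 14 and gates set after thinning 0 to 4. The interaction gave 88 genes with no filter and 1 with gates set after thinning. Between gates, thinning left 2109 to 5173 genes called, against 5797 to 10019.

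The labels number the replicates, and without *Xist*, *Tsix* and 4 Y-linked genes the deviations of same-numbered libraries had r = -0.12. With the replicate number as a block, 0 members and 0 to 3 genes were called in each population, and with crossed numbers 0 members and 0 to 1 genes. The replicate block turned *Mfng* in the Slc1a3 gate to 0.024. Control replicate 2 was the sole library of batch 2. The batch as a covariate therefore set the Dnmt1 KO libraries against control replicate 1 alone and cannot adjust for the batch. For *Dll1* in the Slc1a3 gate it gave -0.267, against -0.273 with control replicate 2 left out.

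Log2 fold changes that changed sign were uncalled in the report's analysis. With 1 library left out, they ranged over all nuclei from -0.058 to 0.53 for *Notch1*, -0.34 to 0.23 for *Dll1*, -0.59 to 0.68 for *Jag1* and -0.60 to 0.19 for *Mfng*. In the Slc1a3 gate they ranged from -0.37 to 0.054 for *Notch1*, -0.51 to 0.27 for *Notch3*, -0.27 to 0.38 for *Dll1*, -1.79 to 0.40 for *Jag1*, -0.26 to 0.73 for *Hes1*, -0.32 to 0.66 for *Hes6* and -0.89 to 1.15 for *Mfng*. In the Eomes gate the ranges were -0.032 to 0.82 for *Notch2*, -0.024 to 1.31 for *Notch3*, -1.07 to 1.15 for *Jag1*, -0.83 to 0.15 for *Hes6* and -0.41 to 0.21 for *Mfng*. Between gates they were -0.20 to 0.25 for *Hes6* (Slc1a3 against layer neuron), -0.44 to 0.031 for *Jag1* (Eomes against Neurod1) and -0.29 to 0.19 for *Hes1* (vascular against Slc1a3).

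Changes of sign by genotype were followed in all nuclei, the Slc1a3 gate and the Eomes gate alone. Over all nuclei, the other change there was *Dll1* at 0.018 with other cell types removed. In the Slc1a3 gate, *Dll1* was at -0.27 with the batch, -0.12 with the filter on reads, -0.029 without doublets, -0.28 thinned and -0.078 with doubled minimums. *Notch3* in the Slc1a3 gate was at 0.057 thinned and 0.085 with gates set after thinning, and *Hes6* was at -0.31 with the batch. In the Eomes gate, thinning gave -0.12 for *Notch1* and -0.53 for *Dll1*, the batch gave -0.024 for *Notch3* and 0.093 for *Mfng*, and *Mfng* was at 0.00297 with gates set after thinning and 0.042 with other cell types removed. Between gates, *Dll1* was at 0.31 thinned and *Hes6* at 0.0011 with DESeq2 (Slc1a3 against layer neuron), and *Jag1* at 0.49 with gates set after thinning (Eomes against Neurod1). *Hes1* between the vascular and Slc1a3 gates was at 0.085 with the filter on reads, 0.048 without doublets, 0.10 thinned, 0.091 with doubled minimums, 0.43 with gates set after thinning, 0.29 with other cell types removed and 0.27 without *Slc1a3* nuclei.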
